A study of Homo sapiens with 4 samples.

Results

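The genes described here are the WNT ligands, their Frizzled receptors and co-receptors, the secreted WNT antagonists and the core of the β-catenin pathway in TC-71, an established Ewing sarcoma (EWS) cell line. Members were chosen by symbol: every WNT, FZD, DKK and SFRP gene with a number in its name, plus 19 named pathway genes, wherever the platform annotation gave a row exactly 1 symbol. This yielded 55 genes of 22085 gene symbols, each with 1 row among the 67539 rows of the table. They were 19 ligands, 9 receptors, 6 co-receptors and membrane regulators, 10 secreted antagonists, 4 genes of the destruction complex and β-catenin, 4 TCF/LEF factors, and NKD1, NKD2 and PORCN. Gene expression was measured on 4 arrays. TC-71 cells labelled TC71+exoTCsiCD99 (replicates C and D) had received EXOs, small extracellular vesicles, from EWS cells silenced for CD99, a surface glycoprotein of these tumours, at 10 µg per 5000 cells in serum-free conditions for a day. TC-71 cells labelled TC71 (replicates A and B) had received none. The comparison asks which genes responded to the EXOs. No cells given EXOs with CD99 are among the 4 samples, and the medium of the untreated cells is not given in the sources used here, so an effect of the missing CD99, of vesicles in general and of the medium cannot be told apart. All cells are of 1 line, and the submitters call the samples of a group biological replicates without saying that they came from separate days.

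WNT proteins are lipid-modified secreted ligands that bind Frizzled receptors together with LRP5 or LRP6. Without a ligand, the destruction complex of APC, AXIN and the GSK3 kinases marks β-catenin (CTNNB1) for degradation. With a ligand, β-catenin accumulates, enters the nucleus and acts through TCF/LEF factors on target genes that include AXIN2, LEF1, LGR5 and the inhibitors RNF43, ZNRF3 and NKD1. Other Frizzled signals act on the cytoskeleton and on cell polarity without β-catenin. In EWS cells WNT ligands are known for effects on cell migration and neurite growth.

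After exposure to CD99neg EXOs, TC-71 cells had changes in 3 members. The Frizzled receptor FZD4 and the secreted Dickkopf protein DKK2 were higher and LGR4, a receptor for R-spondins, was lower, while no WNT ligand was called. Higher or lower here means a fold of 1.5 or more together with an adjusted p of at most 0.05, taken with limma over all rows. Of the 55 members 2 were higher, 1 was lower and 52 were not called, so 5.45% were called. Among all rows 2.59% were called, 1.54% higher and 1.04% lower. The share was 2.10% with 1 row per gene symbol and 4.98% among rows at or above the median signal, where 47 of the 55 members lay. The share of members called, on 3 calls, was thus close to that of rows at or above the median signal and above that of gene symbols. Many of those rows have no symbol, and the share among gene symbols of like signal was not counted. By the adjusted p alone 6 members (10.9%) were higher and 3 (5.45%) were lower. These shares were 5.42% and 4.28% over all rows, 5.84% and 6.98% over gene symbols, and 9.54% and 8.22% among rows at or above the median signal. Both EXO arrays lay above both TC-71 arrays for 10 members (18.2%) and below them for 11 (20.0%), against 28.0% and 19.9% of all rows and 25.9% and 26.6% of gene symbols, and the groups overlapped for 34. Without the moderation that limma applies to the spread of each gene, no member passed the adjusted p. Its unadjusted p was at most 0.05 for 11 of them, against 12 by limma. The share of all rows at this unadjusted limit was not counted, so counts at it are not read as a result here.

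**Figure D1:**
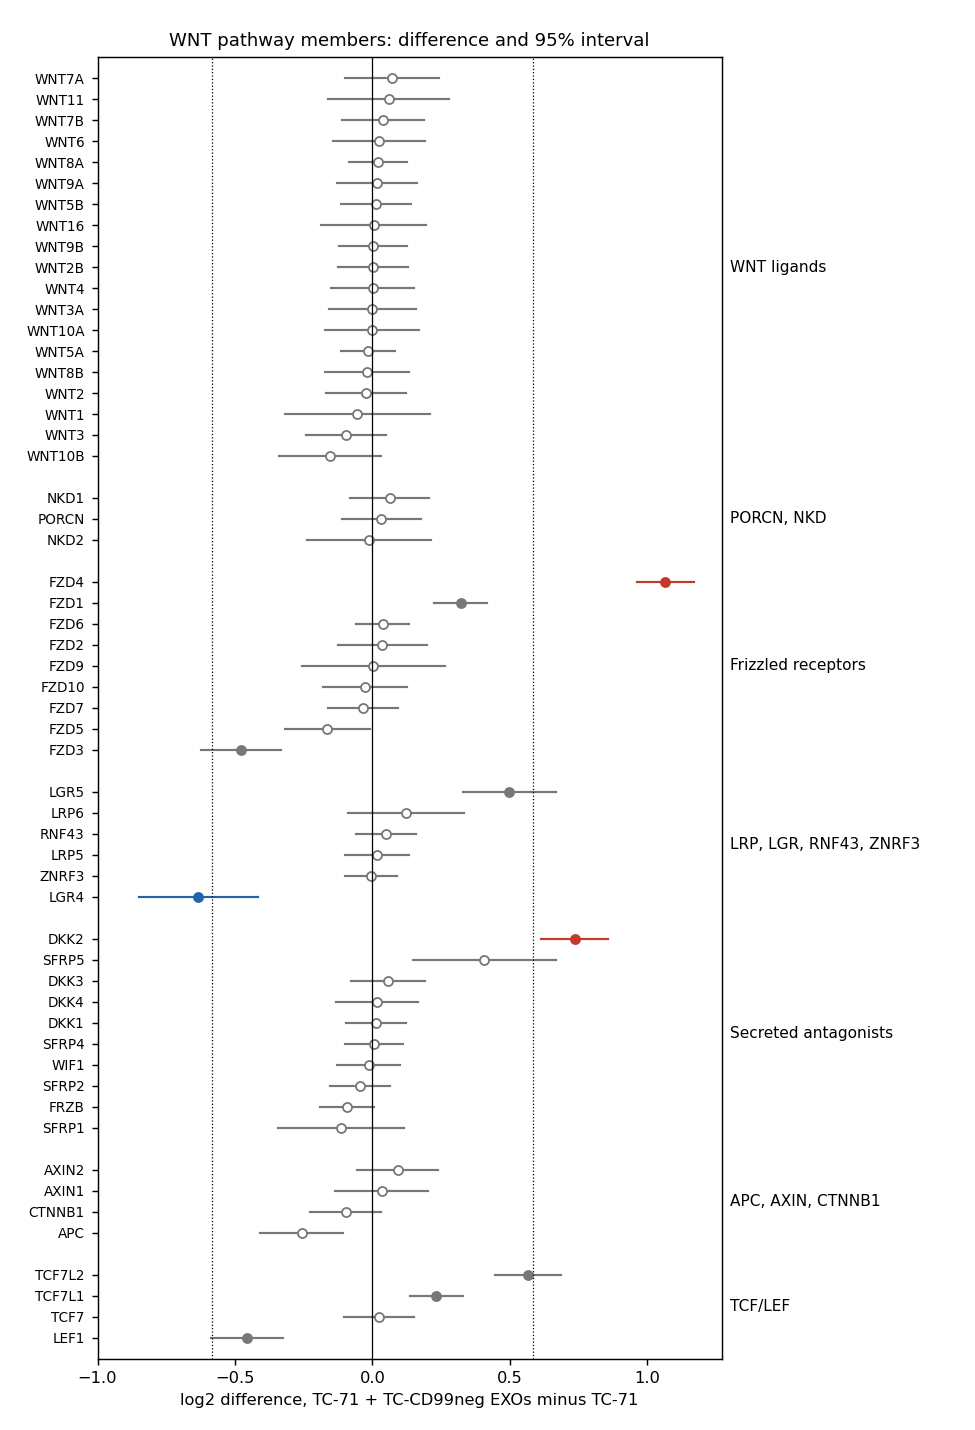
Log2 difference between TC-71 cells exposed to CD99neg EXOs and TC-71 cells for the 55 members (horizontal axis), grouped by role, with the 95% interval from limma (bars). Filled points have an adjusted p of at most 0.05, red and blue points are also past a fold of 1.5 (dotted lines). FZD4, at 1.07, and LGR4, at -0.63, are the ends of the range, and 40 of the 55 members lie within 0.1 of 0.

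The start regions of 4 genes that the results turn on are given first, so that members with opposite differences can be read side by side. They are the RefSeq windows of GRCh38.p14 from 250 bases before to 50 bases after the transcript start, shown for FZD4 and LGR4, which were called in opposite directions, and for TCF7L2 and LEF1, a pair of TCF/LEF factors on opposite sides of 0. The LEF1 gene, on the minus strand, reaches to 108168932 in RefSeq. Its window therefore lies at a start inside the gene and not at the outermost one. Capitals mark the GC box GGGCGG on either strand, overlapping matches included.
FZD4, chr11:86955346-86955645, minus strand: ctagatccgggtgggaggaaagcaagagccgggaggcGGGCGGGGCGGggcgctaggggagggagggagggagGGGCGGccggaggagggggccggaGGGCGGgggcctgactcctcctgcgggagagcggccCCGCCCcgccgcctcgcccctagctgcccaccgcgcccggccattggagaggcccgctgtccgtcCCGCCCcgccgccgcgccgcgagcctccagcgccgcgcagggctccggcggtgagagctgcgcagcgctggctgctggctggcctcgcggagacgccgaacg
LGR4, chr11:27472741-27473040, minus strand: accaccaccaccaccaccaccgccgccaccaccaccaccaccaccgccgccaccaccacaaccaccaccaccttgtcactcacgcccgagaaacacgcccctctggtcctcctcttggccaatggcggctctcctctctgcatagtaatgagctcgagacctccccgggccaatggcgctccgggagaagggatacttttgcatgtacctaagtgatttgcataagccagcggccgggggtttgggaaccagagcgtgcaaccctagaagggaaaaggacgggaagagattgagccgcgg
TCF7L2, first of its 3 windows, chr10:112949997-112950296, plus strand: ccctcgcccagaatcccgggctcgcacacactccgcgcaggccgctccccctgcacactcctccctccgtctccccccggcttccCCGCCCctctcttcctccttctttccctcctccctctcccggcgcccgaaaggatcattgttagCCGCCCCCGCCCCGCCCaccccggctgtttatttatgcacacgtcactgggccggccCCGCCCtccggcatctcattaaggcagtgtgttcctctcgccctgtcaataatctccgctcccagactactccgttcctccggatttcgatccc
LEF1, chr4:108166252-108166551, minus strand: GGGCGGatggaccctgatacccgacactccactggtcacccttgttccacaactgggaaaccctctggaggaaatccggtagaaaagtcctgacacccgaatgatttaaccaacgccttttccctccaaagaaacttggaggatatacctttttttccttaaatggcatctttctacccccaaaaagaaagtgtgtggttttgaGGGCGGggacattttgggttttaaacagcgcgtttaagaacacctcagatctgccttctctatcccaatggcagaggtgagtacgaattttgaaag
The FZD4 window holds 6 GC boxes, the TCF7L2 window 5 and the LEF1 window 2, while these letters are not in the LGR4 window. The windows of FZD1 and TCF7L1, which were also higher by the adjusted p, hold only 1 each. The other TCF7L2 windows hold none. A relation between GC boxes and the direction of a difference was not tested.

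Windows were matched for 38 of the 55 members, 47 windows in all, and DKK2 was among the 17 members without one. A GC box was present in 34 of the 47 member windows, 72.3%, against 45% of all 35116 windows. The member windows also had more G and C, with a median of 66.3% against 58.7%. The TCF/LEF motif CTTTGAT was found on neither strand of any member window, where 2.62% of all windows hold it. The AP-1 motif TGANTCA was present in 1 member window, that of RNF43, or 2.13%, against 7.71% of all windows. A doubled GGAA, the repeat type bound by EWS-FLI1, written GGAAGGAA, was present in 1 member window, another TCF7L2 window, or 2.13%, against 3.67% of all. These matches describe letters in the windows and say nothing on which factors were bound.

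None of the 19 WNT ligands was called, and their differences lay between -0.15 and 0.07. None had an adjusted or an unadjusted p of at most 0.05 by limma or without moderation. The groups overlapped for 17 of the 19, where they did for 35155 of 67539 rows and 10481 of 22085 gene symbols. WNT11, a ligand known mainly for signalling without β-catenin, had log2 signals of 8.10 and 8.12 in EXO-treated cells and 8.17 and 7.94 in TC-71 cells. Its values in treated cells lay between those of the untreated arrays, with a difference of 0.06 (95% interval -0.16 to 0.28). WNT6 had signals of 8.02 and 7.96 in EXO-treated cells and 8.04 and 7.89 in TC-71 cells, a difference of 0.02 (interval -0.14 to 0.19). These groups overlapped as well.

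The widest differences among ligands were both negative. WNT10B, a ligand of the β-catenin branch, had signals of 6.97 and 6.79 in EXO-treated cells and 7.05 and 7.02 in TC-71 cells, a difference of -0.15 (interval -0.34 to 0.03, adjusted p = 0.322). WNT3, of the same branch, had 6.86 and 6.84 in EXO-treated cells and 7.01 and 6.88 in TC-71 cells, a difference of -0.10 (interval -0.24 to 0.05, adjusted p = 0.449). Both genes were lower on each treated array than on each untreated array, yet WNT10B differed by 0.18 between the treated arrays. WNT5A, which acts mostly outside the β-catenin branch, had 7.09 and 7.11 in EXO-treated cells and 7.10 and 7.13 in TC-71 cells, and WNT3A, the ligand most used to activate β-catenin in culture, had 6.99 and 6.90 in EXO-treated cells and 7.00 and 6.89 in TC-71 cells. These 2 ligands, chosen after their values were seen, had intervals of -0.12 to 0.08 and -0.16 to 0.16, which leave out a fold of 1.5 either way. Replicate A was above replicate B for 18 of the 19 ligands, by a median of 0.12, where 41 of all 55 members and 40758 of the 67539 rows had A above B.

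PORCN, the enzyme that attaches the lipid to WNT proteins, had 8.17 and 8.06 in EXO-treated cells and 8.06 and 8.10 in TC-71 cells, a difference of 0.03. NKD1 and NKD2, which bind Dishevelled and dampen the pathway, differed by 0.06 and -0.01. NKD1 had 6.87 and 6.78 in EXO-treated cells and 6.81 and 6.72 in TC-71 cells, and NKD2 had 7.20 and 7.12 in EXO-treated cells and 7.29 and 7.06 in TC-71 cells. None of the 3 was called or had an unadjusted p of at most 0.05 by limma or without moderation, and their groups overlapped.

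Of the 9 Frizzled receptors, FZD4 was higher, FZD1 and FZD3 passed the adjusted p with opposite signs and a fold under 1.5, and the other 6 did not pass. FZD4, which takes up WNT ligands and also the ligand norrin, had signals of 9.19 and 9.21 in EXO-treated cells and 8.11 and 8.15 in TC-71 cells. Both treated arrays were above both untreated ones by far more than either pair differed. The log2 difference was 1.07 ± 0.04 (SE, n = 2 each; interval 0.96 to 1.17), a fold of 2.09 with an adjusted p of 0.0031. The adjusted p was 0.162 without moderation, and the call held when any 1 array was left out, with differences between 1.05 and 1.08.

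FZD1, a receptor of the β-catenin branch, had 7.59 and 7.61 in EXO-treated cells and 7.28 and 7.28 in TC-71 cells. Replicates nearly coincided and the difference was 0.32 ± 0.04 (SE; adjusted p = 0.0150), a fold of 1.25, with an adjusted p of 0.0610 to 0.0763 when 1 array was left out. FZD3, a receptor needed for axon guidance and planar cell polarity in mice, had 7.36 and 7.39 in EXO-treated cells and 7.79 and 7.91 in TC-71 cells. Its treated arrays were both below the untreated ones, by -0.48 ± 0.06 (SE; adjusted p = 0.0152), a fold of 1.39, and its adjusted p was 0.0656 without replicate C and 0.0529 without replicate D. Among the rest, FZD5 had 6.93 and 7.05 in EXO-treated cells and 7.19 and 7.12 in TC-71 cells, a difference of -0.16 (adjusted p = 0.205). FZD2 had 7.66 and 7.68 in EXO-treated cells and 7.71 and 7.56 in TC-71 cells, with overlapping groups. FZD6, FZD7, FZD9 and FZD10 differed by between -0.03 and 0.04. FZD8 shares its row with other symbols and is therefore no member. That row had 8.62 and 8.67 in EXO-treated cells and 8.71 and 8.66 in TC-71 cells, a difference of -0.03 (adjusted p = 0.801).

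**Figure D2:**
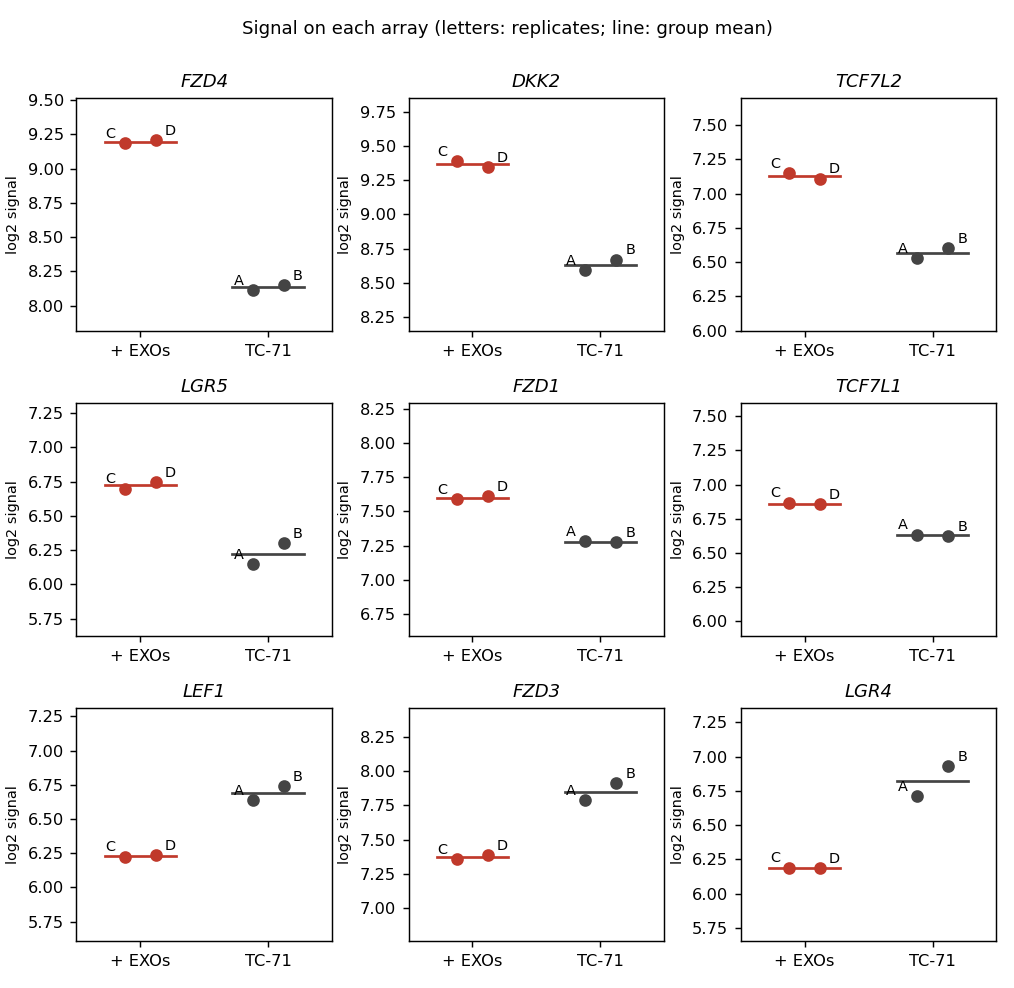
Log2 signal on each array (vertical axis, same span in every panel) for the 9 members with an adjusted p of at most 0.05, EXO-treated TC-71 cells (replicates C and D, red) left of TC-71 cells (replicates A and B, grey), with the group mean as a line. The groups do not overlap in any panel, which follows from choosing these members by the adjusted p on the same arrays. The gap between replicates A and B of LGR4, 0.22, is the widest.

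Among the co-receptors and membrane regulators, the R-spondin receptors LGR4 and LGR5 differed in opposite directions while LRP5, LRP6, RNF43 and ZNRF3 were not called. R-spondins bound to these receptors remove the ubiquitin ligases RNF43 and ZNRF3 from the membrane, which would otherwise clear Frizzled proteins. LGR4 had signals of 6.19 and 6.19 in EXO-treated cells and 6.71 and 6.93 in TC-71 cells. The treated arrays coincided below a wider untreated pair, with a difference of -0.63 ± 0.08 (SE, n = 2 each; interval -0.85 to -0.42), a fold of 1.55 and an adjusted p of 0.0186. The call of LGR4 held without replicate A. It was lost without replicate B, where the difference was -0.52, and without replicate C or D, where the adjusted p was 0.0660 and 0.0598. Its adjusted p without moderation was 0.282.

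LGR5, itself a β-catenin target and a marker of epithelial stem cells, had 6.70 and 6.74 in EXO-treated cells and 6.15 and 6.30 in TC-71 cells. Both treated arrays were above both untreated ones, and the difference was 0.50 ± 0.06 (SE; interval 0.33 to 0.67; adjusted p = 0.0186), a fold of 1.41, with an adjusted p above 0.05 without replicate A, C or D (0.0501, 0.0636 and 0.0677) and with cyclic loess (0.0577). The ligases RNF43 and ZNRF3 differed by 0.05 and -0.005, with 95% intervals of -0.06 to 0.16 and -0.10 to 0.09. LRP6 had 9.50 and 9.47 in EXO-treated cells and 9.26 and 9.47 in TC-71 cells, and LRP5 had 8.51 and 8.43 in EXO-treated cells and 8.46 and 8.44 in TC-71 cells. Neither co-receptor separated the groups, with differences of 0.12 and 0.02.

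The secreted antagonists held the second call in the positive direction. DKK2, which binds LRP5 and LRP6 and blocks or supports the pathway depending on the cell, had signals of 9.39 and 9.34 in EXO-treated cells and 8.59 and 8.67 in TC-71 cells. The groups were well apart, with a difference of 0.74 ± 0.05 (SE, n = 2 each; interval 0.61 to 0.86), a fold of 1.67 and an adjusted p of 0.0057. The call of DKK2 held when any 1 array was left out, at 0.70 to 0.77, and its adjusted p without moderation was 0.204. SFRP5, which binds WNT ligands outside the cell, had 6.90 and 6.71 in EXO-treated cells and 6.50 and 6.30 in TC-71 cells. It was higher on each treated array, by 0.41 ± 0.10 (SE), but each pair of replicates was 0.20 apart and the adjusted p was 0.0835.

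The other 8 antagonists had differences between -0.11 and 0.06. DKK3, a divergent Dickkopf protein, had 6.84 and 6.80 in EXO-treated cells and 6.81 and 6.71 in TC-71 cells. Of the 10 antagonists, DKK1, DKK4, SFRP2, SFRP4, FRZB and WIF1 had signals below the median of all rows. DKK1, the best known inhibitor of LRP6, had 4.66 and 4.68 in EXO-treated cells and 4.69 and 4.63 in TC-71 cells, close to the lowest values of the arrays (4.27 to 4.31). The table holds no detection calls, so these values are not shown to differ from background.

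**Figure D3:**
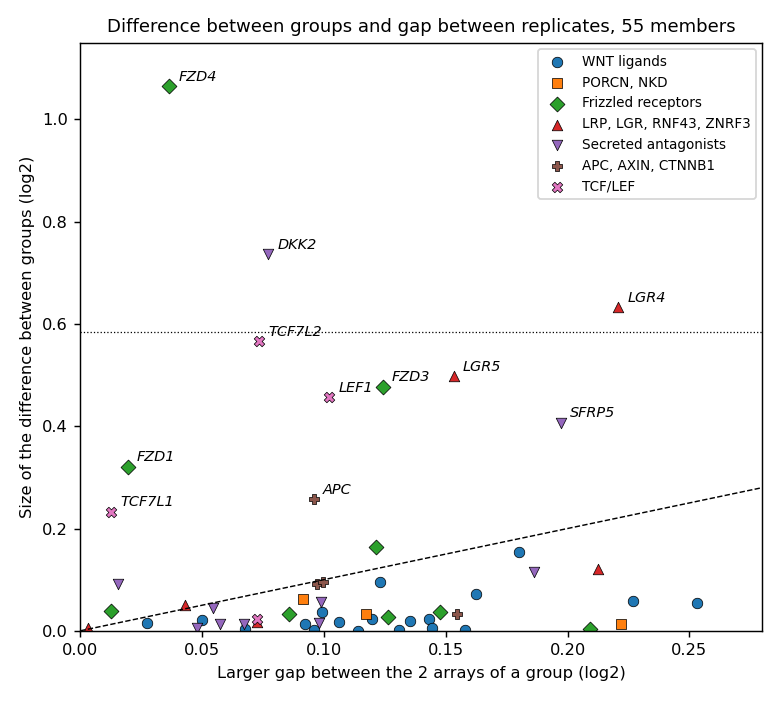
Size of the log2 difference between EXO-treated and untreated TC-71 cells (vertical axis) against the larger gap between the 2 arrays of a group (horizontal axis), 1 point per member, with symbols for the role and names above 0.2. Points above the dashed line differ by more than either replicate gap, and the dotted line is a fold of 1.5. FZD4 and DKK2 combine a difference of 1.07 and 0.74 with small gaps, and all 19 ligands lie at a difference of 0.15 or less.

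The destruction complex and β-catenin had no call. APC, the scaffold lost in colorectal tumours, had 6.61 and 6.70 in EXO-treated cells and 6.86 and 6.96 in TC-71 cells. It was lower on each treated array, by -0.26 ± 0.06 (SE; interval -0.41 to -0.11), with an adjusted p of 0.0680. CTNNB1 had 7.16 and 7.16 in EXO-treated cells and 7.21 and 7.31 in TC-71 cells, a difference of -0.10 (interval -0.23 to 0.03, adjusted p = 0.378). AXIN1 had 7.63 and 7.58 in EXO-treated cells and 7.65 and 7.49 in TC-71 cells, with overlapping groups. AXIN2, the feedback inhibitor often read as a measure of β-catenin activity, had 6.75 and 6.66 in EXO-treated cells and 6.66 and 6.57 in TC-71 cells. Its treated arrays were both above the untreated ones, the nearest of which almost coincided, with a difference of 0.09 (interval -0.06 to 0.24, adjusted p = 0.479). By limma APC was the 1 gene of these 4 with an unadjusted p of at most 0.05, and without moderation there was none. These are mRNA values, and β-catenin is controlled mainly through the stability of its protein, which was not measured here.

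Of the 4 TCF/LEF factors, 3 passed the adjusted p and none reached a fold of 1.5. TCF7L2, the factor most often paired with β-catenin in the intestine, had 7.15 and 7.11 in EXO-treated cells and 6.53 and 6.60 in TC-71 cells. The groups were clearly apart, with a difference of 0.57 ± 0.05 (SE; interval 0.45 to 0.69; adjusted p = 0.0081), a fold of 1.48, just under the limit. Without replicate B or D it passed the limit, at 0.60 and 0.59. TCF7L1, which acts mostly as a repressor, had 6.87 and 6.86 in EXO-treated cells and 6.63 and 6.62 in TC-71 cells. Its replicates agreed closely and the difference was 0.23 ± 0.04 (SE; adjusted p = 0.0295), with an adjusted p of 0.0899 to 0.166 when 1 array was left out. The adjusted p of TCF7L1 was also above 0.05 with the trend and robust form of eBayes (0.0798) and with arrays centred on medians (0.0571) or on reference genes (0.119).

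LEF1, both a partner and a target of β-catenin, had 6.22 and 6.24 in EXO-treated cells and 6.64 and 6.74 in TC-71 cells. It was lower on both treated arrays, by -0.46 ± 0.05 (SE; interval -0.59 to -0.33; adjusted p = 0.0136), a fold of 1.37, and the adjusted p was 0.0607 and 0.0518 without replicate C or D. TCF7 had 6.14 and 6.07 in EXO-treated cells and 6.12 and 6.04 in TC-71 cells, a difference of 0.02. So the family split, with TCF7L2 and TCF7L1 above 0, TCF7 near 0 and LEF1 below 0.

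Among the members that are themselves textbook β-catenin targets (AXIN2, LEF1, TCF7, LGR5, RNF43, ZNRF3 and NKD1), 0 of 7 were called by limma. LGR5 was higher and LEF1 lower by the adjusted p alone, which are also the ones with an unadjusted p of at most 0.05 among them, and the median difference of the 7 was 0.05, against 0.01 over all rows.

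**Figure D4:**
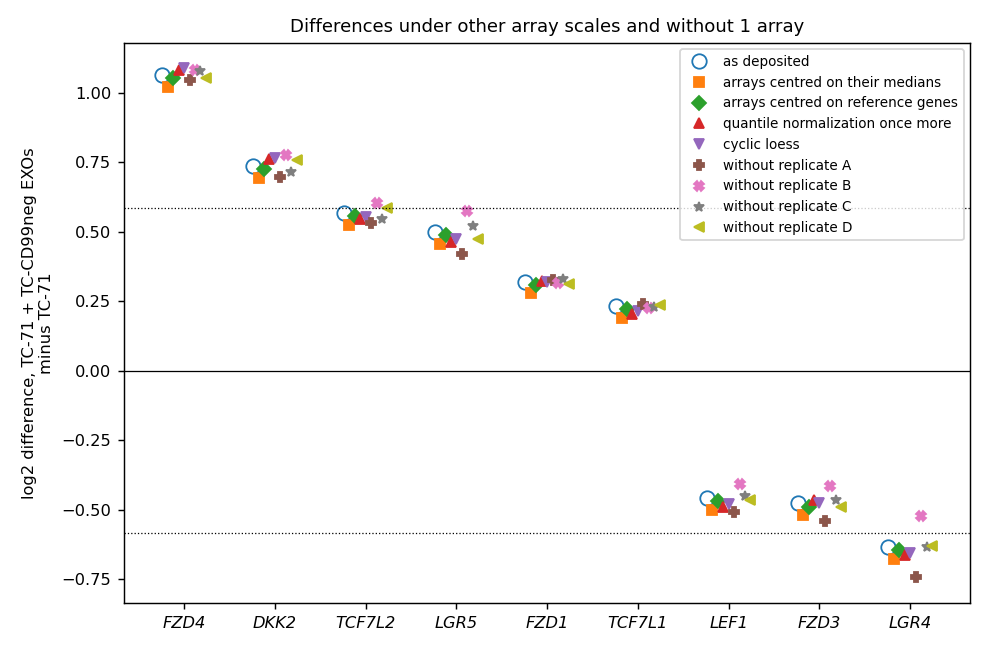
Log2 difference between EXO-treated and untreated TC-71 cells (vertical axis) for the 9 members with an adjusted p of at most 0.05, with the deposited scale (open circles), other scales of the arrays and 1 array left out (other symbols). The groups of these members do not overlap, so leaving out 1 array could not change a sign, and no other scale did. LGR4 spans -0.74 to -0.52 while TCF7L2 spans 0.52 to 0.60 around the fold limit of 1.5 (dotted lines).

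The remaining genes of the pathway came from a list of 108, chosen with earlier results of these data known. Of these, 101 had a row with 1 symbol. CER1 and CREBBP were higher, JUN was lower and 98 were not called, so 2.97% were called. This share was 2.10% of all gene symbols, 2.59% of all rows and 4.98% of rows at or above the median signal, where 87 of the 101 genes lay. None of the 3 kept its call without moderation. By the adjusted p alone 9 (8.91%) were higher and 10 (9.90%) were lower, where the shares were 5.84% and 6.98% over gene symbols and 9.54% and 8.22% among rows at or above the median signal. CER1, a secreted antagonist of nodal and BMP and in Xenopus also of WNT ligands, had 7.23 and 7.43 in EXO-treated cells and 6.31 and 6.27 in TC-71 cells. Both treated arrays were far above the untreated ones, with a difference of 1.04 ± 0.08 (SE, n = 2 each; adjusted p = 0.0071) and a fold of 2.06. In the same class of 20 secretion and extracellular regulators, APCDD1, a membrane inhibitor of WNT binding, differed by 0.34 (adjusted p = 0.0250) and SERPINF1 by -0.35 (adjusted p = 0.0150). WLS, the carrier that brings WNT proteins to the cell surface, had 8.35 and 8.35 in EXO-treated cells and 8.25 and 8.36 in TC-71 cells, with overlapping groups.

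CREBBP, a histone acetyltransferase recruited by β-catenin, had 9.85 and 9.78 in EXO-treated cells and 8.95 and 9.15 in TC-71 cells, a difference of 0.77 ± 0.08 (SE; adjusted p = 0.0121). The treated arrays were higher although the untreated pair was 0.20 apart. Of the 15 nuclear cofactors 4 in all were higher and 1 lower by the adjusted p (5.84% and 6.98% of gene symbols were), among them TLE4, a Groucho corepressor, at 0.33, and CTBP2, a corepressor too, at -0.26. Of the 25 cytoplasmic components 0 were called by limma, and by the adjusted p alone 1 was higher and 2 were lower. An unadjusted p of at most 0.05 was reached by 10, with no share of all rows to set beside it. GSK3A, a kinase of the destruction complex, had 9.53 and 9.47 in EXO-treated cells and 8.94 and 9.05 in TC-71 cells, a difference of 0.51 ± 0.06 (SE; adjusted p = 0.0132) and a fold of 1.43, and its relative GSK3B differed by 0.19 (adjusted p = 0.195). TNKS2, a tankyrase that marks AXIN for degradation, differed by -0.32 (adjusted p = 0.0426). In the non-canonical branch of 14 genes 0 were called, and VANGL1, a planar polarity protein, was the 1 with an adjusted or an unadjusted p of at most 0.05 by limma, at -0.28 (adjusted p = 0.0421), while DAAM1 differed by 0.13.

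Among 27 further genes known as β-catenin targets in other tissues, JUN was lower and 26 were not called. JUN, a subunit of AP-1 with many inputs besides WNT, had 7.28 and 7.04 in EXO-treated cells and 8.29 and 8.25 in TC-71 cells. Its treated arrays were the lower ones despite a gap of 0.24 between them, and the difference was -1.10 ± 0.09 (SE; adjusted p = 0.0081), a fold of 2.15. By the adjusted p alone 2 targets were higher (VEGFA at 0.37 and PPARD at 0.28) and 5 were lower, JUN included, against 5.84% and 6.98% of gene symbols. The other lower ones were EPHB3 at -0.34, PLAUR at -0.30, MSX1 at -0.29 and TBX3 at -0.23. MYC, which lies downstream of the pathway in colon cells, had 10.61 and 10.62 in EXO-treated cells and 10.63 and 10.73 in TC-71 cells, a difference of -0.06 (adjusted p = 0.625). CCND1 had 11.04 and 11.01 in EXO-treated cells and 11.15 and 11.24 in TC-71 cells, a difference of -0.17 (interval -0.29 to -0.05, adjusted p = 0.110).

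**Figure D5:**
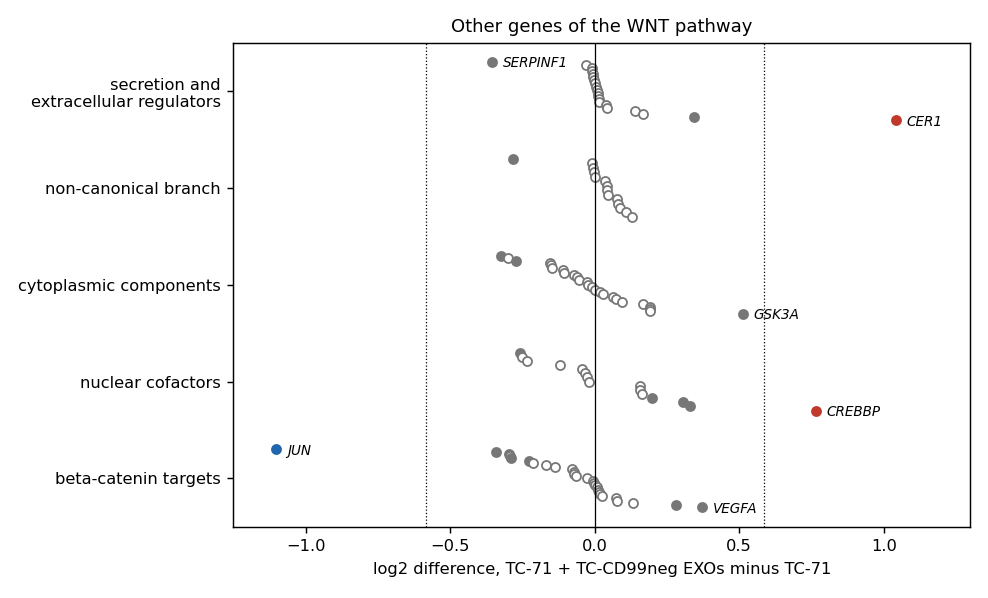
Log2 difference between EXO-treated and untreated TC-71 cells (horizontal axis) for the 101 other pathway genes by class, 1 point per gene, filled where the adjusted p is at most 0.05 and red or blue where the fold of 1.5 (dotted lines) is also passed. CER1, at 1.04, CREBBP, at 0.77, and JUN, at -1.10, are outside the dotted lines.

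Array medians were 5.45 and 5.44 in EXO-treated cells and 5.42 and 5.38 in TC-71 cells, and arrays of a group correlated at 0.998 and 0.997, against 0.988 to 0.990 between groups. Of the 55 members 34 had a positive and 21 a negative difference, but most were so small that centring the arrays on their medians gave 14 positive and 41 negative, while the calls stayed FZD4, DKK2 and LGR4. The label of an EWS line was checked on 10 marker genes, among them CD99, with 10.24 and 10.25 in EXO-treated cells and 9.93 and 9.98 in TC-71 cells. None of the 10 had a mean below the median of all rows. That limit was also reached by 10 of 17 markers of other cell types, so it does not tell an EWS line from other cells. PAX7 was called higher and NR0B1 lower in EXO-treated cells, by 0.63 and -0.62. By the adjusted p alone 5 were higher, namely PAX7, BCL11B, CAV1, CD99 and NKX2-2. NR0B1 and STEAP1, 2 of the 10, were lower by it, so the markers did not move in 1 direction. The shares over gene symbols were 5.84% and 6.98%. Of 17 markers of leukocytes, epithelium, endothelium, fibroblasts, muscle and astrocytes 1 was called, CD68, at 7.15 and 7.21 in EXO-treated cells and 7.82 and 7.83 in TC-71 cells. DCN, a fibroblast marker, passed the adjusted p alone, with 5.83 and 5.94 in EXO-treated cells and 5.39 and 5.35 in TC-71 cells (0.52, adjusted p = 0.0120). LUM, another, was at 4.96 and 5.15 in EXO-treated cells and 4.76 and 4.80 in TC-71 cells (0.27, adjusted p = 0.113). The remaining fibroblast marker, PDGFRA, had overlapping groups, with 4.94 and 4.95 in EXO-treated cells and 4.95 and 4.92 in TC-71 cells (0.007, adjusted p = 0.970). The mean log2 signal over all 17 was 5.67 and 5.68 in EXO-treated cells and 5.69 and 5.64 in TC-71 cells. Their means ran from 4.54 for PTPRC, near the lowest values of the arrays, to 7.99 for ACTA1, with 10 at or above the median of all rows. Their part in the differences of the members was not tested. Fewer cells with a transcript and less of it per cell cannot be told apart in such bulk samples.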

How the data were processed

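RNA of 4 TC-71 samples was labelled and hybridised to Affymetrix HTA 2.0 arrays. The authors summarized the probes with ExonRMA16 in GeneSpring 14.9, quantile-normalized the arrays with no baseline transformation and deposited log2 values, used here as they are. The genome build behind the annotation is not given in the sources used here. Rows are named by the platform table: 23383 of the 67539 rows have 1 symbol, 1225 have several and 42931 have none. Row IDs of the members start with JUC (52) or PSR (3), prefixes this array type uses for exon junctions and probe selection regions, and no file used here says which probes each value sums. All 1839 rows of the study's own list of changed transcript clusters were found by both group means within 1e-04, so rows were taken as transcript clusters and the direction was settled.

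Differences are EXO-treated minus untreated TC-71 cells, fitted over all rows with limma 3.58.1 (lmFit and eBayes, R 4.3.3) and adjusted by Benjamini-Hochberg, with 2 residual and 2.59 prior degrees of freedom. A call needed a fold of 1.5 or more with an adjusted p of at most 0.05. Precision is limited by having 2 arrays per group, and p-values measure only the spread between these samples. Members and gene lists were chosen with earlier results of these data known. Values per array are given for called members, members past 1 of the 2 limits and, per role, the 2 with the highest mean and the 2 with the largest change. Other pathway genes were named where called or, per class, for the 2 largest changes; further names are background choices. Signals of different rows were not compared as levels. Promoter windows were searched on both strands in Python 3.11.15. Scripts were tested on simulated data. Alternatives covered the moderation, the scale of the arrays, dim rows, the fold limit, the naming of rows and each array left out.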

Additional observations from a re-analysis of the deposited data

How the results depend on the processing

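The calls of FZD4, DKK2 and LGR4 among members, and of CER1, CREBBP and JUN among other pathway genes, were the same with eBayes using a trend and robust fitting, arrays centred on medians or on 10 reference genes, a further quantile normalization, cyclic loess, dim rows left out (47 members and 87 other genes remained), identical rows counted once, the mean of all rows of a symbol and updated symbols. Each of the 55 members has 1 row, so the mean of rows could not change a member's difference, and updated symbols added no member. No member shares its values with another row, so counting identical rows once could change only its adjusted p. Adding the FZD8 row, chosen after seeing the data, added no call. Without moderation there were 0 calls in either direction in both lists. With no fold limit 6 members were higher and 3 lower, and 9 and 10 other genes. At a fold of at least 2, 1 member (FZD4) was higher and 0 lower, and 1 other gene (CER1) was higher, with JUN still lower. With 1 array left out, members called higher numbered 2 to 3 (TCF7L2 joined without replicate B or D) and lower 0 to 1 (LGR4 was called only without replicate A), while other genes stayed at 2 higher and 1 lower. These fits leave 1 array in a group, which is assumed to vary like the other group. By the adjusted p alone, members numbered 3 higher and 3 lower without A, 4 and 3 without B, and 3 and 0 without C or D.

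The adjusted p of TCF7L1 was above 0.05 with the trend and robust eBayes and with either centring, and that of LGR5 with cyclic loess. None of the 9 members past the adjusted p reversed under any of the 17 alternatives. The sign of the many small differences was less settled: positive and negative members were 34 and 21 as deposited, 27 and 28 with reference genes, 22 and 33 with quantile normalization, 25 and 30 with cyclic loess, 41 and 14 without A, 16 and 39 without B and 24 and 31 without C. The cause was not tested. No paired analysis was possible because the replicate letters differ between the groups.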
